A study of Mus musculus with 22 samples.

Results

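Cpne5, Cited1, Smpx, Etv1 and Clu are 5 genes used as markers of the trabecular myocardium of the embryonic heart, taken here beside the better known Nppa and Gja5. They were chosen by name, with earlier results of these data known, and all 5 were found among the 54356 genes of the deposited files. RNA from C57BL/6 mouse hearts at embryonic stage E13.5 was sequenced in bulk from 22 libraries. The knockout groups carried a conditional knockout of Prdm16 (cKO), a gene for a zinc finger transcription factor, and the controls were littermates listed as wild type, with "Mock" entered as their genetic manipulation. Each genotype had 3 whole heart libraries, 4 of the isolated left ventricle and 4 of the isolated right ventricle. The Cre driver of the deletion is not given in the sources used here. The labels do not tie libraries to single embryos, so the p-values measure the spread between these libraries, part of which may be technical.

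The wall of the embryonic ventricle has an inner trabecular layer, a meshwork of muscle ridges lined by endocardium, and an outer compact layer that divides faster. Trabecular myocytes mature early, conduct rapidly and later give rise to much of the ventricular conduction system. Endocardial signals such as neuregulin, Notch ligands and ephrins pattern the layer, and its genes are read as an index of inner wall identity. The comparison of cKO with control hearts asked whether trabecular genes beside Nppa and Gja5 differed without Prdm16. No library holds a separated layer, so the trabecular origin of any of the 5 genes was not measured here. In bulk RNA, a change in the number of cells of a type and a change in RNA per cell cannot be told apart.

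The whole heart libraries held 38590751 to 62004017 assigned reads and the ventricle libraries 14508722 to 22830716. Prdm16 was lower in CPM (reads scaled to library size) in every cKO library than in every control library of its tissue, with log2 fold changes of -1.04, -1.19 and -0.75 for whole heart, left ventricle and right ventricle. The left minus right difference in this change of Prdm16 was -0.44 (adjusted p = 0.0404, edgeR), a call lost in 5 of 12 alternative settings. In TPM the left ventricles overlapped, with cKO 1 at 5.75 and control 1 at 5.37. The calls of Prdm16 were lost in 3 of 12 alternative settings in the right ventricle and in 2 of 11 in the whole heart. Whole heart control 1 stood apart with 19478 genes detected, against 25499 to 27146 in the other 5 whole hearts. Right ventricle control 2 stood apart in the mesenchyme gene Postn, at 266 TPM (a level scaled to transcript length and library) against 42.0 to 47.6 TPM in the other 3 right ventricle controls. The markers of ventricular cardiomyocytes summed to 14817 TPM or more in each library, and the 5 markers of trabecular cardiomyocytes to 1798 TPM or more. All 5 marker genes described here passed the filter on low counts in both fits, one of the 6 whole hearts and one of the 16 ventricles.

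Cpne5 and Smpx were the members that changed. Cpne5 rose in all 3 tissues, with log2 fold changes of 1.15 (whole heart), 1.0 (left ventricle) and 1.61 (right ventricle). Smpx rose by 0.38 in the right ventricle, and its values in the left ventricle (0.27) and whole heart (0.25) did not pass the test. Cited1, Etv1 and Clu did not pass it in any tissue.

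Of the 5 members, 1 was higher in cKO whole hearts, where 4.03% of all genes tested were called and 1.96% were called higher. In the left ventricle 1 of 5 was higher, against 25.6% of genes called and 12.3% called higher, which is near the share of all genes. Right ventricles had 2 of 5 higher, against 10.3% called and 6.12% called higher. The members were chosen with earlier results of these data known, so these counts are no test of the set. No member was called for the difference between the ventricles, against 1.43% of genes, and 1 member, Cpne5, had an unadjusted p under 0.05 there. The median log2 fold change of the 5 was -0.03 in the whole heart, 0.04 in the left ventricle and 0.16 in the right. The medians of all genes tested were 0.01, 0.00 and -0.01. The comparisons of the ventricles with each other called Cpne5 and Cited1 as higher on the left in the controls, where 21% of genes were called and 9.02% were higher on the left. In the cKO the same pair was called higher on the left and Smpx higher on the right, against 32.8% of genes called, 14.5% on the left and 18.3% on the right.

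**Figure D1:**
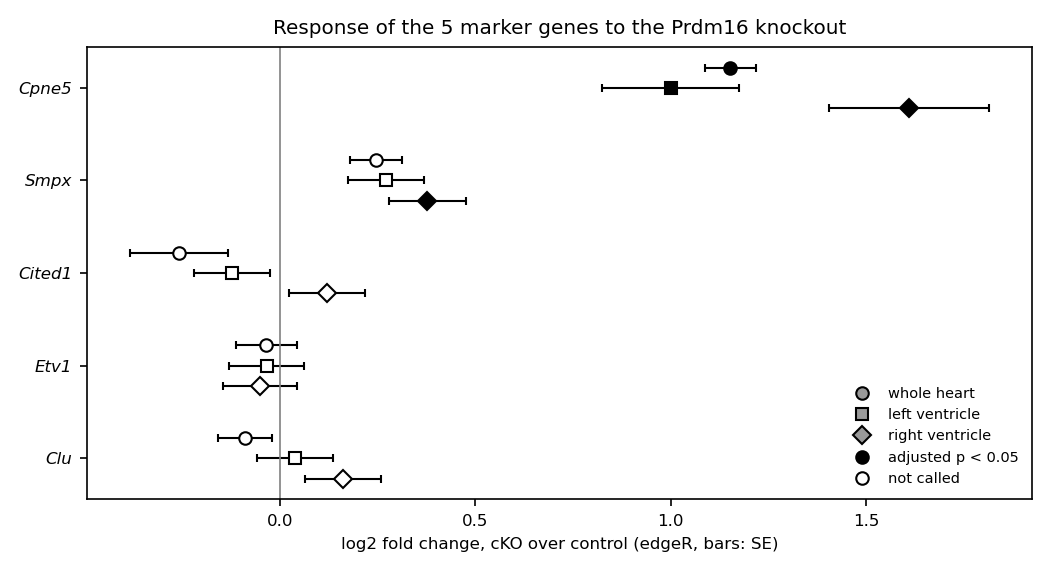
Log2 fold change of each marker gene, cKO over control (horizontal axis), in the whole heart, left ventricle and right ventricle, with bars for the SE and filled symbols for adjusted p under 0.05. The 3 values of Cpne5 lie between 1.0 and 1.61, and the other genes lie between -0.26 and 0.38.

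Cited1 and Smpx, the pair of X-linked members, had the highest levels of the 5 genes, and the sequence upstream of each is shown to set them side by side. The sequences come from RefSeq (GRCm38.p6), run 5′ to 3′ on the strand of the gene, and stop where a GENCODE M21 exon of the gene begins. Capitals mark matches on either strand to AAGTG, a short string from sites of NKX factors, to AGATAA, from sites of GATA factors, and to TATAAA, the TATA box. The Cited1 stretch is chrX:102252182-102252431 on the minus strand and the Smpx stretch is chrX:157698723-157698909 on the plus strand.
Cited1: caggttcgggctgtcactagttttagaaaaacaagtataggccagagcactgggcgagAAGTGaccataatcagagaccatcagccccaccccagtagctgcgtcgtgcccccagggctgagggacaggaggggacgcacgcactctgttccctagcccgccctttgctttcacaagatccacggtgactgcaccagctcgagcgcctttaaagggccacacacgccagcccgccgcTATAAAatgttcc
Smpx: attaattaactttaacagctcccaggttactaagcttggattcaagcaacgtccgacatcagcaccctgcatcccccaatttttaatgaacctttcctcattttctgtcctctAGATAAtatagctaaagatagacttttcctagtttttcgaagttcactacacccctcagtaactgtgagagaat

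The full windows of 250 bases before the RefSeq starts were compared with those of 27025 genes. AGATAA was found in 10.3% of these windows, AAGTG in 40.8% and TATAAA in 13.0%. The Smpx window held AGATAA at 137 and at 27 bases before the start, the second of them past the stretch shown. Cited1 has 3 RefSeq windows, and the one shown held AAGTG at 192 bases and TATAAA at 13 bases before the start. Before their own starts, window 2 held TATAAA at 115 bases, and window 3 held AAGTG, on either strand, at 231, 120 and 80 bases. GGTGTG, a T-box half-site (16.2% of windows), and CCGGAA, an ETS site (12.2%), were in none of these windows nor in that of Cpne5. The Cpne5 window, 29237791 to 29238040 on chromosome 17, lay within an exon of the gene in GENCODE and is not shown. It had a GC content of 76.4%, above that of 97.1% of the windows, and 1 match to AAGTG as its reverse complement, at 49 bases. The Smpx window was at 42.8% GC, above 18.6% of the windows. These matches describe the letters of the windows and no binding was measured.

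Cpne5 encodes copine 5, a protein that binds phospholipids in the presence of calcium. The gene (ENSMUSG00000024008.16) spans 29155556 to 29238167 on the minus strand of chromosome 17 in GRCm38. Whole hearts had Cpne5 at 9.16, 10.7 and 8.92 TPM in the controls and at 30.1, 26.4 and 24.8 TPM in the cKO libraries. Left ventricle controls had 10.1, 9.83, 11.6 and 16.2 TPM, and left cKO libraries 30.3, 22.5, 23.8 and 30.9 TPM. Right ventricle controls had 3.09, 3.76, 3.04 and 2.58 TPM, and right cKO libraries 13.1, 13.3, 6.37 and 7.86 TPM. In each tissue the lowest cKO library lay above the highest control, and as a ratio the groups came closest in the left ventricle, at control 4. Right ventricle cKO 1 and 2 were higher than cKO 3 and 4.

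**Figure D2:**
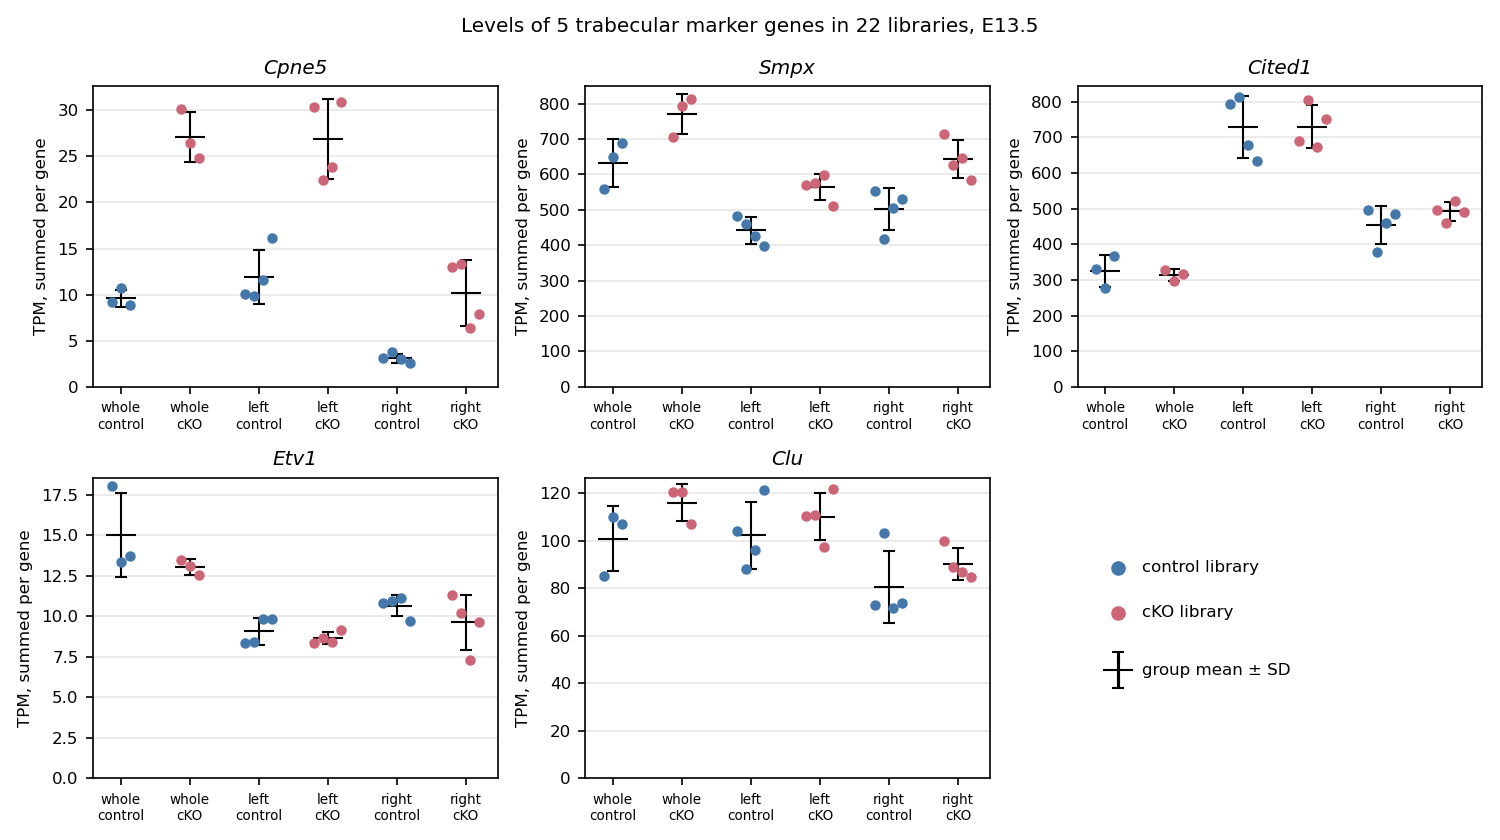
Levels of the 5 marker genes in TPM (vertical axis, linear from 0) in each library, by tissue and genotype, with the group mean and SD. Cpne5 and Smpx have all cKO points above the control points of the same tissue, whereas the groups of Cited1, Etv1 and Clu overlap.

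The group means of Cpne5 were 9.59 ± 0.964 and 27.1 ± 2.71 TPM (SD, n = 3) in control and cKO whole hearts. They were 11.9 ± 2.95 and 26.9 ± 4.33 TPM (SD, n = 4) in the left ventricle, and 3.12 ± 0.485 and 10.2 ± 3.57 TPM (SD, n = 4) in the right ventricle. The cKO whole heart and cKO left ventricle had the highest levels and overlapped. The control left ventricle, cKO right ventricle and control whole heart followed, each overlapping the next, and the control right ventricle was below them all. On counts, edgeR's quasi-likelihood test with Benjamini-Hochberg adjustment gave a log2 fold change of 1.15 in the whole heart (SE 0.07, adjusted p = 1.87e-04). The value was 1.0 on the left (SE 0.18, adjusted p = 4.21e-04) and 1.61 on the right (SE 0.20, adjusted p = 6.04e-05). Both ventricle values come from one fit with a shared estimate of the spread. The ratio of mean TPM was larger than the count ratio, 2.83 against 2.22 in the whole heart, 2.26 against 2.0 in the left ventricle and 3.26 against 3.05 in the right ventricle.

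The larger log2 change of Cpne5 in the right ventricle was tested as a difference between the ventricles. That difference was -0.61, left minus right (SE 0.27), with an unadjusted p of 0.0379 and an adjusted p of 0.328 in edgeR, so a difference between chambers was not established. In both genotypes the left ventricle had more Cpne5 than the right, by a log2 difference of 1.75 in the controls (SE 0.20, adjusted p = 1.81e-05) and by 1.15 in the cKO (SE 0.18, adjusted p = 1.15e-04). Without right ventricle control 2, the library with high Postn, the right ventricle change was 1.65 (adjusted p = 1.42e-04). Without whole heart control 1, the whole heart change was 1.16 (adjusted p = 1.23e-04).

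Depth behind Cpne5 was 97 to 2852 reads per library. One gene on the opposite strand, AC162182.2, shares exon sequence with Cpne5 and held at most 11 reads in any library. The library kit was stranded per the labels, while the strand setting of the quantification is not given in the sources used here. Salmon divided the Cpne5 reads among 7 transcripts, of which 5 reached 10% of the gene's TPM in some library. The retained-intron transcript ENSMUST00000126993.7 went from 7.09 ± 1.96 to 15.8 ± 2.05 TPM (SD, n = 4) between control and cKO left ventricles. Over the same libraries the protein-coding ENSMUST00000137727.2 went from 3.90 ± 1.06 to 8.93 ± 1.75 TPM (SD, n = 4). Right ventricle means went from 1.51 to 6.09 TPM for the first and from 0.913 to 3.36 TPM for the second. The cKO libraries lay above the controls for both transcripts in each tissue, so the higher gene level did not rest on a single transcript estimate. Transcript estimates were not tested.

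Smpx encodes a small muscle protein, also called Chisel, of the costameres that link sarcomeres to the cell membrane. The gene (ENSMUSG00000041476.12) lies at 157698910 to 157752591 on the plus strand of the X chromosome. Control right ventricles had Smpx at 553, 418, 505 and 531 TPM, and cKO right ventricles at 715, 626, 647 and 585 TPM. Left ventricles had 482, 461, 426 and 398 TPM in the controls and 571, 577, 598 and 511 TPM in the cKO. Whole hearts had 559, 649 and 690 TPM in the controls and 707, 793 and 814 TPM in the cKO libraries. Each cKO library thus lay above each control of its tissue, closest in the whole heart at 690 against 707 TPM. The group means in order were 771 (cKO whole heart), 643 (cKO right), 633 (control whole heart), 564 (cKO left), 502 (control right) and 442 TPM (control left), and each group overlapped the next.

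Such a separation in CPM was seen for 13.8% of genes in the whole heart, 14.1% in the left ventricle and 7.61% in the right ventricle. It was met by 2 of the 5 members, Cpne5 and Smpx, in each tissue. The log2 fold change of Smpx in the right ventricle was 0.38 (SE 0.10, adjusted p = 0.0191, edgeR). The left ventricle had 0.27 (SE 0.10, adjusted p = 0.0508) and the whole heart 0.25 (SE 0.07, adjusted p = 0.10), neither of which passed the threshold of 0.05. In 9 of 12 alternative settings the left ventricle passed it, as did the whole heart in 1 of 11. The right ventricle call held in 10 of 12 and was lost with length-scaled counts (adjusted p = 0.063) and with the ventricles fitted alone (adjusted p = 0.0597). The difference between the ventricles was -0.11 (SE 0.14, adjusted p = 0.808). The right ventricle call was lost without cKO 1 (adjusted p = 0.0651) or cKO 3 (adjusted p = 0.0539), while the left ventricle passed without right ventricle control 2 (adjusted p = 0.00742). Without that control the right ventricle change was 0.27 (adjusted p = 0.0213).

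Between chambers, Smpx was higher in the right than in the left ventricle of the cKO (left over right -0.31, SE 0.10, adjusted p = 0.0205). That call was lost on log2 TPM (-0.19, adjusted p = 0.158) and without left ventricle cKO 4 (adjusted p = 0.0624), right ventricle cKO 1 (0.0635) or right ventricle cKO 3 (0.0548). In the controls the same difference was -0.21 (SE 0.10, adjusted p = 0.147), and -0.31 (adjusted p = 0.00544) without right ventricle control 2. In the ventricles most Smpx TPM was assigned to the protein-coding ENSMUST00000190091.6, whose 5′ end coincides with the RefSeq start used for the Smpx window. Its mean went from 298 ± 28.0 to 378 ± 29.5 TPM (SD, n = 4) in the left ventricle and from 337 ± 41.5 to 443 ± 30.5 TPM (SD, n = 4) in the right. A second coding transcript, ENSMUST00000112521.7, had left ventricle means of 94.9 and 96.2 TPM in control and cKO, with overlapping libraries. The nonsense-mediated decay transcript ENSMUST00000147283.7 had left ventricle means of 29.0 ± 11.3 and 60.1 ± 7.46 TPM (SD, n = 4).

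**Figure D3:**
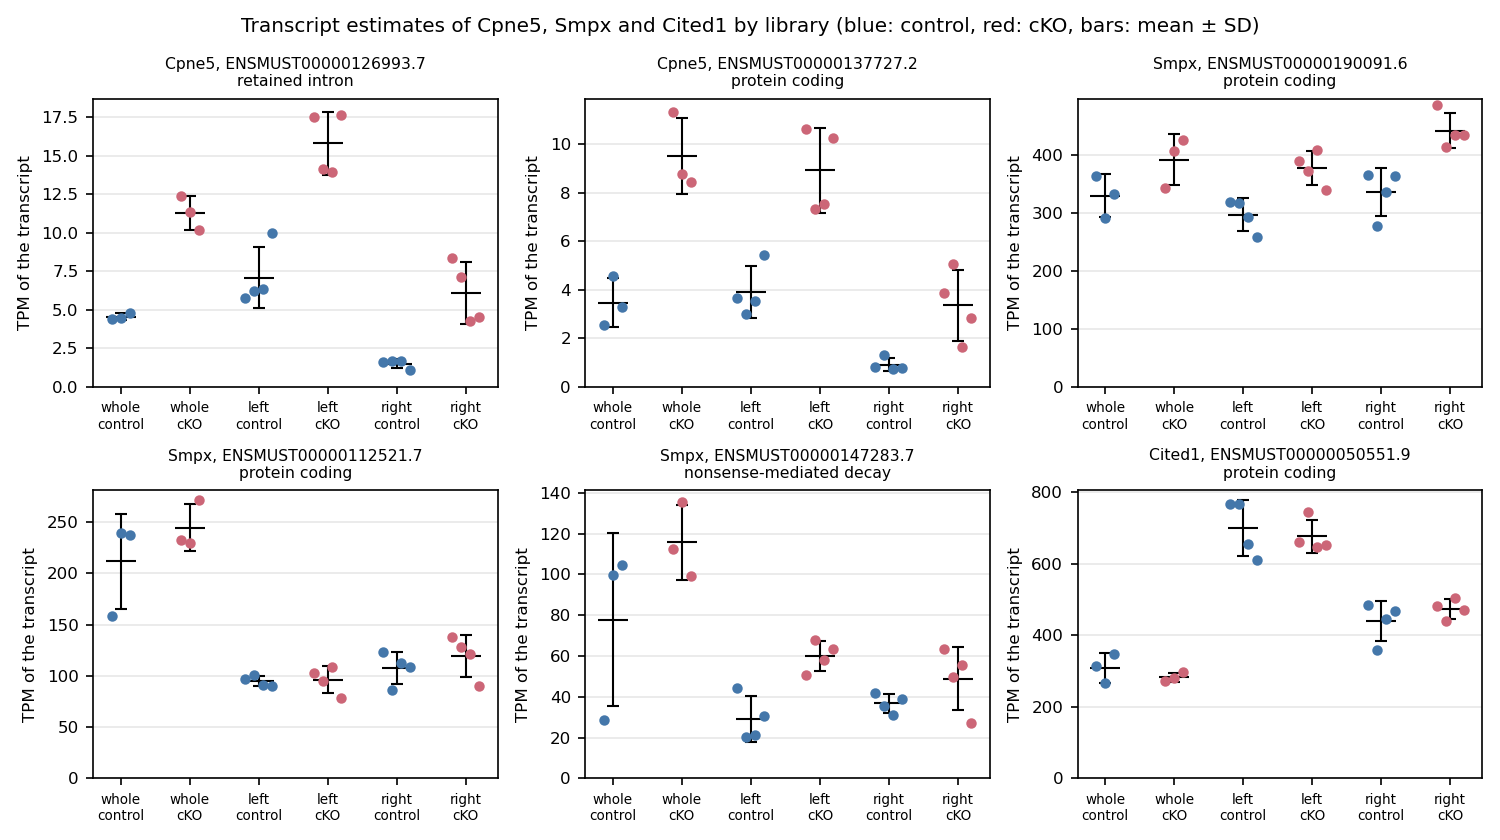
TPM of single transcripts (vertical axes, linear from 0) of Cpne5, Smpx and Cited1 in each library, with the group mean and SD. Both Cpne5 transcripts are higher in the cKO of each tissue, while ENSMUST00000112521.7 of Smpx overlaps between genotypes in the ventricles.

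Cited1 encodes a transcriptional co-regulator that binds CBP and p300. The gene (ENSMUSG00000051159.16) lies at 102247381 to 102252181 on the minus strand of the X chromosome. Its left ventricle levels were 792, 814, 678 and 633 TPM in the controls and 690, 804, 672 and 751 TPM in the cKO libraries. The right ventricles had 497, 378, 459 and 484 TPM in the controls and 496, 460, 523 and 490 TPM in the cKO libraries. Whole heart levels were 330, 277 and 367 TPM in the controls and 328, 296 and 318 TPM in the cKO libraries. The genotypes overlapped in each tissue. In TPM the left ventricle libraries lay above all right ventricle libraries, and these above all whole hearts. In CPM right ventricle control 2, at 231, was below whole heart controls 1 and 3, at 241 and 233. Whole hearts were fitted apart and not tested against the ventricles.

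The log2 fold change of Cited1 between cKO and control was -0.12 on the left (SE 0.10, adjusted p = 0.404), 0.12 on the right (SE 0.10, adjusted p = 0.515) and -0.26 in the whole heart (SE 0.13, adjusted p = 0.349). The ratio of mean TPM was nearer to equality in the left ventricle and whole heart, at 1.0 and 0.966. Without whole heart control 2 the whole heart value became -0.41 (adjusted p = 0.00707). The chamber difference passed the test in both genotypes. Cited1 was higher on the left by 0.57 in the controls (SE 0.10, adjusted p = 6.41e-04) and by 0.32 in the cKO (SE 0.10, adjusted p = 0.0169), and the change in that difference was -0.24 (SE 0.14, adjusted p = 0.469). The cKO difference was no longer called without left ventricle cKO 2 (adjusted p = 0.0516) or right ventricle cKO 2 (adjusted p = 0.0568). The coding transcript ENSMUST00000050551.9, which starts at the base after the sequence printed above, took 90.2% to 96.4% of Cited1 TPM on average in each group.

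Etv1 encodes an ETS factor of the PEA3 family, known from rapidly conducting myocardium. The gene (ENSMUSG00000004151.17) lies at 38779380 to 38870484 on the plus strand of chromosome 12. Etv1 had left ventricle levels of 8.35, 8.39, 9.82 and 9.82 TPM in the controls and 8.35, 8.68, 8.44 and 9.18 TPM in the cKO libraries. It had right ventricle levels of 10.8, 10.95, 11.1 and 9.70 TPM in the controls and 11.3, 10.2, 7.32 and 9.66 TPM in the cKO libraries. In whole hearts it stood at 18.0, 13.3 and 13.7 TPM in the controls and at 13.48, 13.1 and 12.5 TPM in the cKO libraries. The genotypes overlapped in each tissue, with whole heart control 1 highest and right ventricle cKO 3 lowest. Whole hearts had more Etv1 TPM than any ventricle library, and the ventricle groups overlapped from one to the next. The log2 fold changes were -0.03 on the left (SE 0.10, adjusted p = 0.848), -0.05 on the right (SE 0.09, adjusted p = 0.813) and -0.03 in the whole heart (SE 0.08, adjusted p = 0.861). The left over right difference was -0.16 in the controls (adjusted p = 0.263) and -0.14 in the cKO (adjusted p = 0.282). The coding transcript ENSMUST00000095767.10 took 48.8% to 71.0% of Etv1 TPM on average in each group. Another coding transcript, ENSMUST00000160244.7, was at 0 in each cKO ventricle library. It had 0.927 to 1.92 TPM in right ventricle controls and 0 to 2.44 TPM in left ventricle controls. Whole hearts had it at 0 to 2.18 TPM in controls and 0 to 3.10 TPM in cKO libraries. In right ventricle controls it rested on 31.0 to 74.4 estimated reads, and its difference between genotypes was not tested.

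Clu encodes clusterin, a secreted chaperone. The gene (ENSMUSG00000022037.15) lies at 65968483 to 65981547 on the plus strand of chromosome 14. Clu levels on the left were 104, 88.0, 96.2 and 121 TPM in the controls and 110.5, 111, 97.5 and 122 TPM in the cKO libraries. On the right they were 72.8, 103, 71.7 and 73.7 TPM in the controls and 99.8, 88.9, 86.7 and 84.8 TPM in the cKO libraries. In whole hearts they were 85.2, 110 and 107 TPM in the controls and 120, 120 and 107 TPM in the cKO libraries. The coding transcript ENSMUST00000022616.13 had 81.7 to 109 TPM in whole heart controls and 93.0 to 102 TPM in the cKO. The nonsense-mediated decay transcript ENSMUST00000138665.1 had 23.5 and 20.1 TPM in whole heart cKO 1 and 2. It was at 0 in cKO 3 and in the whole heart controls. The overlap of the right ventricle groups came from control 2, the library with high Postn. Ordered by mean, each of the 6 groups overlapped the next, from 116 TPM in cKO whole hearts to 80.3 TPM in control right ventricles. The log2 fold changes were 0.16 in the right ventricle (SE 0.10, adjusted p = 0.346), 0.04 in the left (SE 0.10, adjusted p = 0.815) and -0.09 in the whole heart (SE 0.07, adjusted p = 0.573). Without right ventricle control 2 the right ventricle value was 0.26 (adjusted p = 0.0641). In the controls Clu had 0.27 more, as log2, on the left than on the right (SE 0.10, adjusted p = 0.0592), and 0.37 higher (adjusted p = 0.00558) without that control.

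The list of 13 other trabecular and conduction genes also changed in part. On the left 5 of its 12 tested genes rose and 2 fell (median 0.25), in the right ventricle 2 of 12 rose (median 0.19), and in the whole heart 2 of 13 rose (median 0.05). For comparison, edgeR called 25.6% of all genes on the left (12.3% higher), 10.3% on the right (6.12%) and 4.03% in the whole heart (1.96%). Nppa, which encodes atrial natriuretic peptide, rose by 1.02 in the left ventricle (adjusted p = 3.00e-04) and by 1.17 in the right (adjusted p = 2.64e-04). Tbx5, a T-box factor of the left ventricle and atria, rose by 0.72 (adjusted p = 1.75e-04) and 0.89 (adjusted p = 1.35e-04). In the left ventricle Nppb, which encodes a related natriuretic peptide, rose by 1.10. Id2, which encodes a transcriptional inhibitor present in the conduction system, rose there by 0.64, and Sema3a, a guidance ligand, by 0.28. Irx3, a homeobox factor of the fast conduction network, fell by 0.42 there and Hcn4, a pacemaker channel, fell by 0.34. The connexin gene Gja5 had values of -0.22 and -0.32 in the left and right ventricle, and the ligand Bmp10 had 0.18 and 0.19, none of which passed the test. For the difference between the ventricles 1.43% of all genes were called. No gene of the list was among them, Nppb (0.99, adjusted p = 0.0671) included. Cpne5 and 2 of the 12 listed genes, Nppa and Tbx5, therefore rose in both ventricles. Tested as log2 TPM with limma, 5 listed genes rose and 0 fell in the left ventricle, the calls of Irx3 and Hcn4 being lost. On that scale 2 rose in the right ventricle and 0 in the whole heart, and fewer of all genes were called in each tissue. The counts of all genes called under each setting are given in the last section.

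**Figure D4:**
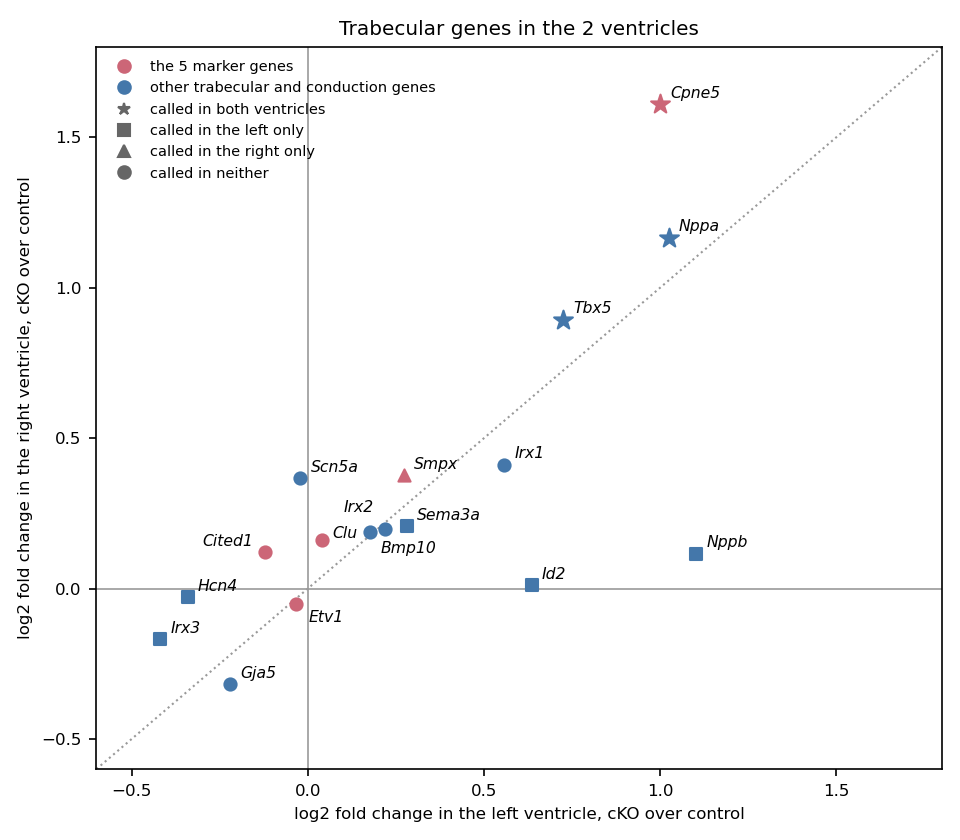
Log2 fold change, cKO over control, in the left (horizontal axis) and right ventricle (vertical axis) for the 5 marker genes and 12 other trabecular and conduction genes. Stars mark Cpne5, Nppa and Tbx5, called in both ventricles, and the dotted line marks equal change. The 2 comparisons share a fit.

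In the control hearts several of these genes were, like Cpne5 and Cited1, higher on the left. The left over right difference was 2.32 for Gja5, 1.62 for Tbx5, 1.51 for Hcn4 and 1.10 for Nppa, and -0.95 for Nppb, each with an adjusted p of at most 0.00146. In all, 5 of 12 were higher on the left and 1 on the right, against 21% of all genes called and 9.02% called higher on the left.

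Among 12 genes of the signals that drive trabeculation, 6 rose and 2 fell in the left ventricle (median 0.03), 2 rose and 1 fell in the right ventricle (median 0.09), and 2 rose in the whole heart (median 0.11). The shares of all genes called in these tissues were 25.6%, 10.3% and 4.03%, with 12.3%, 6.12% and 1.96% called higher. For the difference between the ventricles the share of all genes called was 1.43%. The ligand gene Nrg1 rose in the left ventricle by 0.60 (adjusted p = 0.0205), and its receptor gene Erbb4 rose there by 0.37 (adjusted p = 7.17e-04) and in the right ventricle by 0.25 (adjusted p = 0.0256). The ephrin gene Efnb2 rose by 0.59 in the left ventricle and its value in the right was 0.07, and the difference between the ventricles passed the test (0.52, adjusted p = 0.0013). The Notch ligand gene Jag1 fell by 0.45 on the left (0.01 on the right, difference -0.45, adjusted p = 0.0295). Vcan, which encodes the matrix proteoglycan versican, fell by 0.51 on the left and 0.38 on the right. Tested as log2 TPM, where fewer of all genes were called, 4 genes of the signals rose and 1 fell in the left ventricle. In the other tissues none was called on that scale. The calls of Erbb4, Vcan and both differences between ventricles were lost there. Of 3 regulators of the compact layer, Hey2 fell by 1.14 and Mycn by 0.81 in the left ventricle. Neither passed in the right ventricle. Both were called lower in the whole heart, calls lost in 5 (Hey2) and 3 (Mycn) of 11 alternative settings. Their differences between the ventricles were -1.10 (adjusted p = 5.04e-06) and -0.65 (adjusted p = 6.54e-04, lost for Mycn on log2 TPM).

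Of 8 other copine genes, 5 were tested in the ventricles. Cpne1 rose by 0.44 in the left ventricle (adjusted p = 0.0425), and Cpne3 fell by 0.15 in the left (adjusted p = 0.0112) and by 0.15 in the right ventricle (adjusted p = 0.0257). In the whole heart none of 6 copines tested was called. Among all genes tested, 25.6% were called in the left ventricle, 10.3% in the right and 4.03% in the whole heart. Of the CITED family, Cited4 fell by 0.49 in the left ventricle (adjusted p = 0.0124), and Cited2 had 0.11 there (adjusted p = 0.257). Of the PEA3 family, Etv5 rose by 0.28 in the left ventricle (adjusted p = 0.0402), whereas Etv4 had 0.25 (adjusted p = 0.0744). On log2 TPM the calls of Cpne1, Cpne3 and Cited4 were lost, and both Etv4 and Etv5 were called higher in the left ventricle.

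The genes whose profile over the 16 ventricle libraries was nearest to each member were found among 11132 protein-coding genes by the root mean square difference of log2 CPM after centring each gene. Tbx5 was nearest to Cpne5 at 0.37, followed by Arhgef4, a gene for a guanine nucleotide exchange factor, at 0.41 and Ptpro, a receptor tyrosine phosphatase gene, at 0.42. Cpne5 varied by an SD of 1.05 over these libraries, and no gene came within 0.3 of it. Tbx5 stood at 10.2, 6.58, 7.46 and 9.23 TPM in right control ventricles and 21.1, 17.4, 11.9 and 14.8 TPM in right cKO ventricles. Left ventricles had Tbx5 at 26.5, 28.9, 27.9 and 29.9 TPM in the controls and 48.3, 48.0, 47.0 and 48.8 TPM in the cKO libraries. As with Cpne5, right ventricle cKO 1 and 2 were higher in Tbx5 than cKO 3 and 4. Tbx5 was picked for its likeness to Cpne5 over these same libraries, so the shared order is no independent result. Arhgef4 and Ptpro lacked this order. Right ventricle cKO 1 to 4 had Arhgef4 at 7.57, 6.27, 5.98 and 7.85 TPM and Ptpro at 4.54, 1.85, 3.39 and 2.68 TPM.

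**Figure D5:**
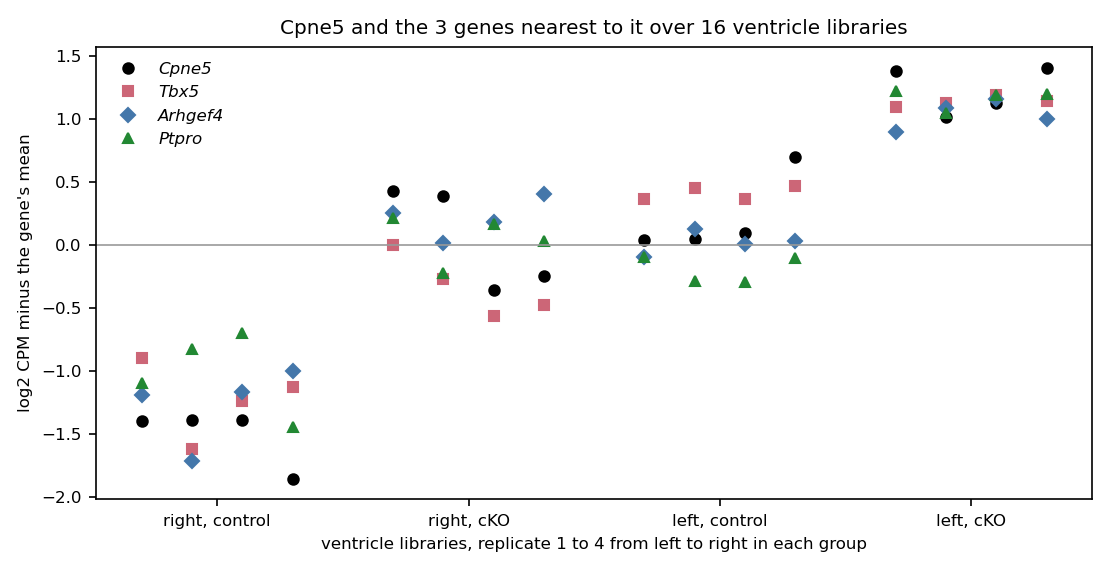
Log2 CPM minus the gene's mean (vertical axis) of Cpne5, Tbx5, Arhgef4 and Ptpro in each of the 16 ventricle libraries (horizontal axis). In all 4 genes the right control libraries are lowest and the left cKO libraries highest.

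The other members varied little, and many genes lay close to them. Tgfbr3, which encodes the betaglycan receptor of TGF-beta ligands, was nearest to Smpx at 0.067, with 62.7% of genes within 0.3. Slc6a6, the taurine transporter gene, was nearest to Cited1 at 0.13, with 47.3% within 0.3. Rce1 was nearest to Etv1 at 0.096 (85.5% within 0.3) and Irf1 to Clu at 0.085 (79.3% within 0.3). For these members the nearest genes are therefore weakly set apart from the rest.

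Marker genes of other cell types moved with genotype beside Cpne5. Of all genes tested, 25.6% were called in the left ventricle (12.3% higher), 10.3% in the right (6.12%) and 4.03% in the whole heart (1.96%). Of 9 markers of atrial cardiomyocytes, 6 rose in each tissue, and their summed level was 3284 to 3531 TPM in control and 4804 to 5658 TPM in cKO left ventricles. The sum was 4154 to 4504 TPM in control and 5849 to 6111 TPM in cKO right ventricles, and 3326 to 3764 and 4815 to 4926 TPM in whole hearts. The atrial marker Sln was at 0 in 1 of the 22 libraries. Fewer of all genes were called on log2 TPM than in edgeR in each tissue. The atrial markers called on log2 TPM were 6, 5 and 2 in the left ventricle, right ventricle and whole heart. Ventricular cardiomyocyte markers fell in 5 of 5 cases in the left ventricle and whole heart and in 0 of 5 in the right ventricle (0 of 5 in the whole heart on log2 TPM). Their sum was 34265 to 36849 TPM in control and 24453 to 30559 TPM in cKO left ventricles. It was 32525 to 38150 TPM in control and 33192 to 37734 TPM in cKO right ventricles. In whole hearts it was 18231 to 18940 TPM in control and 14817 to 15457 TPM in cKO libraries. The part of these shifts in the values of Cpne5 and Smpx was not tested.

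The shares of all genes called higher in edgeR were 12.3% in the left ventricle, 6.12% in the right and 1.96% in the whole heart. Fewer genes were called on log2 TPM in each tissue. Of 8 endothelial and endocardial markers, 6 rose in the left ventricle, 2 in the right and 2 in the whole heart (6, 2 and 0 on log2 TPM). Their sum was 388 to 403 TPM in control and 480 to 536 TPM in cKO left ventricles, 364 to 388 and 400 to 433 TPM in right ventricles, and 395 to 430 and 477 to 514 TPM in whole hearts. Epicardial markers rose in 5, 1 and 0 of 6 cases in the left ventricle, right ventricle and whole heart, with sums of 94.3 to 104 and 131 to 148 TPM on the left, 80.5 to 86.9 and 87.3 to 99.2 TPM on the right, and 106 to 114 and 120 to 150 TPM in the whole heart. Markers of red blood cells rose in 1, 4 and 0 of 8 cases, with sums of 10253 to 25605 TPM in control and 24674 to 47590 TPM in cKO right ventricles (1 of 8 called there on log2 TPM). In the left ventricle the red cell sum was 20324 to 38609 TPM in control and 28634 to 72929 TPM in cKO libraries. Mesenchyme markers rose in 1, 0 and 0 of 8 cases, and neural markers in none of those tested, with Sox10 at 0 in 10 of the 22 libraries. The part of these cells in the members' values was likewise not tested.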

How the data were processed

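The 22 files hold 1 library each. The authors quantified transcripts with Salmon 1.2.1, and their notes also name DESeq2 1.22.2 and the builds GRCm38.p6 and mm10, per the submitters' processing notes. The deposited expected counts are estimated reads per transcript with no scaling between libraries. The deposited TPM carry the authors' scaling for length and library. RNA integrity numbers are given in the labels as a range for all samples, not per library.

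Of 140658 transcripts, 140137 were matched by identifier without version to GENCODE M21. The 521 without a match, at most 0.204% of the reads of any library, were dropped. Sums over the transcripts of each of 54356 genes gave its TPM and, after rounding, its estimated count. Tests used edgeR 4.0.16 in R 4.3.3 (quasi-likelihood F test, TMM factors, filterByExpr), with Benjamini-Hochberg adjustment over all genes tested and a threshold of 0.05. The 6 whole hearts were fitted alone (19160 genes), and the 16 ventricles in one model of 4 group means (16448 genes). All fold changes are on the log2 scale. Their SE was taken as the size of the change over the square root of F. The script was tested on simulated data.

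The members and gene lists were chosen with earlier results of these data known. All members are named, and of each list up to 6 genes with the smallest p in the left ventricle, with Prdm16 as a check of the labels. Hcn4, Gja5, Bmp10 and Nrg1 were chosen beside these after their values were seen. The 3 genes nearest to a member were sought among protein-coding genes averaging 2 log2 CPM or more. Alternatives were library totals, RLE factors, no haemoglobin genes, no filter or at least 1 CPM, length-scaled counts, DESeq2 1.42.0, limma 3.58.1 (voom with quality weights, or log2 TPM with a pseudocount of 1 or 0.1 over genes averaging 1 TPM or more), ventricles fitted alone, a replicate block, and each library left out. After the data were seen, these settings were also applied to the gene lists.

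Libraries with the same number were checked for shared deviations from their group means. Between genotypes the correlations ran from -0.03 to 0.22 in the left ventricle, -0.06 to 0.18 in the right and -0.19 to 0.06 in the whole heart. Between the left and right ventricle they ran from -0.12 to 0.19 in the controls and from 0.10 to 0.28 in the cKO. By the rule that each pair exceeds 0.1, the numbers pair the cKO ventricles, though libraries 2 only just pass it (0.104). Left ventricle cKO 2 correlated more with right ventricle cKO 4. The library of the same number was the best match in 3 of 4 pairs. No label states such a pairing. A replicate block within genotype changed no call of a member in that comparison.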

Additional observations from a re-analysis of the deposited data

Results flagged for a closer look

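One of the 20 sets of member values tested (5 genes in 4 ventricle groups) had a library far from the others. Clu stood at 103 TPM in right ventricle control 2, against 71.7 to 73.7 TPM in the other 3 right ventricle controls, a gap of 0.936 of the group's range. The same library had the high Postn and Meox1 values (266 and 25.8 TPM). The flagging rule was set so that chance alone flags about 1 in 20 groups. That rate belongs to the rule, and the chance of a gap as large as this one was not computed. Whole heart groups of 3 libraries were not tested for such gaps.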

How the results depend on the processing

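Counts of genes called varied most with the scale. In the whole heart, 773 genes were called, and 135 with length-scaled counts, 1727 with DESeq2, 1777 with limma voom, 69 and 83 on log2 TPM with pseudocounts of 1 and 0.1, and 218 with a replicate block. In the left ventricle, 4216 became 2684, 2380 and 2336 with length-scaled counts and the 2 TPM settings. In the right ventricle, 1696 became 829, 625 and 616 under these, and 1052 with the ventricles fitted alone. The difference between ventricles went from 236 to 64, 31 and 27 under these, 467 with DESeq2 and 414 with voom. Left against right went from 3462 to 1693, 1232 and 1253 in the controls, and from 5398 to 3205 with length-scaled counts and 3598 with a pseudocount of 0.1 in the cKO. Leaving out 1 library gave 184 to 1292 genes in the whole heart (1292 without control 1) and 125 to 358 for the difference between ventricles (358 without right ventricle control 2).

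Cpne5 was called in each alternative run for the 5 comparisons in which it was called. With 1 library left out its log2 change was 1.10 to 1.198 in the whole heart, 0.94 to 1.19 in the left ventricle and 1.48 to 1.73 in the right. With the replicate block it was 1.15, 0.995 and 1.59.

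Smpx in the left ventricle passed the threshold with library totals (0.29), no filter (0.28), at least 1 CPM (0.27), DESeq2 (0.27), voom (0.27), both TPM settings (0.35), the ventricles fitted alone (0.28) and the replicate block (0.27, adjusted p = 0.0379), and ran from 0.21 to 0.31 with 1 library left out. In the right ventricle it lost the call with length-scaled counts (0.36) and the ventricles fitted alone (0.38), and ran from 0.27 to 0.43. In the whole heart it passed with DESeq2 (0.25). Left against right, Smpx passed with voom in the controls (-0.27; -0.31 to -0.15 with 1 library left out). In the cKO it lost the call on both TPM settings (-0.19), and without left cKO 4, right cKO 1 or right cKO 3 (-0.36 to -0.27).

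Left against right in the controls, Clu passed with library totals (0.32), DESeq2 (0.26) and voom (0.30), and ran from 0.19 to 0.37 with 1 library left out. Clu changed sign in the whole heart with length-scaled counts (0.15) and TPM (0.21), and in the left ventricle with 1 library left out (-0.042 to 0.12). Cited1 in the left ventricle was 0.0043 on both TPM settings. With 1 library left out it was -0.41 to -0.16 in the whole heart and 0.29 to 0.38 for left against right in the cKO. Etv1 lay near 0 and changed sign with 1 library left out in the whole heart (-0.083 to 0.027), left ventricle (-0.082 to 0.019), right ventricle (-0.15 to 0.017) and their difference (-0.050 to 0.12, and -0.0051 with voom). Of 785 alternative values of members, 735 kept direction and side of the threshold, 11 lost a call, 20 gained one and 19 changed sign. The cause of these changes was not tested. Reads behind a value ran from 97 for Cpne5 to 21119 for Smpx per library, and fewer reads give less precision.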
